A study of Rattus norvegicus with 9 samples.

Results

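The matrix metalloproteinases (MMP), the ADAMTS proteinases and the tissue inhibitors of metalloproteinases (TIMP) were followed across 3 types of cultured rat fibroblasts. Members were all genes named *Mmp* or *Adamts* with a number or *Timp* with a digit, a rule that uses the symbol and no measured value. This gave 45 of 32883 genes in the files, with 22 MMP, 19 ADAMTS and 4 TIMP genes. All cells came from wild-type male Lewis rats of 10 weeks, were freed from tissue with 2% collagenase and 0.125% trypsin, were grown in 10% fetal bovine serum and were passaged once after 3 to 4 days. Fb-Epn came from the epineurium, the outer sheath of the sciatic nerve, and Fb-Par from the nerve parenchyma inside it, both from the nerves of 2 rats. Abdominal skin of 1 further rat gave Fb-Skn, so tissue, rat and body site cannot be told apart in any comparison with Fb-Skn. The parenchyma holds both the endoneurium and the perineurium, and nothing in the labels separates them within Fb-Par. Each type had 3 libraries. With these numbers of rats the 3 libraries of a type were not 3 animals, so each SD and p-value below measures only the spread between libraries, which may be technical.

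MMPs and ADAMTS proteinases are zinc enzymes that cleave proteins of the extracellular matrix. Most are made as inactive proenzymes, and TIMPs block the active site of the mature enzyme. MMPs include the collagenases, which cut fibrillar collagen, the gelatinases, which cut denatured and basement membrane collagen, the stromelysins, and the membrane-type enzymes, which sit on the cell surface. ADAMTS enzymes are secreted and include procollagen N-proteinases, which trim collagen during its synthesis, and hyalectanases, which cut proteoglycans such as versican and aggrecan. In injured peripheral nerve these enzymes are known to remodel the matrix through which axons regrow. Transcript counts say nothing of how much enzyme was secreted or active.

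Of the MMP genes, 10 lie side by side on chromosome 8 of rn6, from 5522739 to 5901049, with 0 other genes of the files between them. In order these are *Mmp13*, *Mmp12*, *Mmp1b*, *Mmp3*, *Mmp1*, *Mmp10*, *Mmp8*, *Mmp27*, *Mmp20* and *Mmp7*, which encode collagenases, stromelysins, matrilysin, macrophage elastase and less common enzymes. RefSeq promoter windows, from 250 bases before to 50 bases after a transcript start on GRCr8, were found for 34 of the 45 members. The motif TGAGTCA, the site bound by the AP-1 factors of the Fos and Jun families, was searched on both strands and can also read TGACTCA. It was present for 6 of the 10 members of the cluster and for 0 of the 24 other members with a window. *Adamts13* had 7 windows and *Adamts17* had 2. Of all 33469 windows, 4.63% held the motif. The windows of all 6 members with the motif also held TATAAA, the TATA box, which was present on either strand of 14.2% of all windows. TATAAA was not limited to these genes. It was also present for *Mmp8* and *Mmp20* of the cluster and for 4 of the 24 other members. The windows of *Mmp1b*, *Mmp8*, *Mmp27* and *Mmp20* held no such AP-1 site within these letters. The stretches from 100 to 21 bases before the start are shown for these 6 genes because the shared site sits at a like distance in each, with its first base from 87 bases (*Mmp12*) to 61 bases (*Mmp10*) before the start. Capitals mark the AP-1 site, which comes first, and the TATA box.
Mmp13 (chr8:12782729-12782808, plus strand): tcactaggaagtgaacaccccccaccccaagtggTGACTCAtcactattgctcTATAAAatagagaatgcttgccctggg
Mmp12 (chr8:12866552-12866631, plus strand): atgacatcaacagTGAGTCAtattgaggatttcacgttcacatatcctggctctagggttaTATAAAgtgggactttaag
Mmp3 (chr8:12925181-12925260, plus strand): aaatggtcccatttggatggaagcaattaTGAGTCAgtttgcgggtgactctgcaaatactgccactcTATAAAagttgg
Mmp1 (chr8:12943353-12943432, plus strand): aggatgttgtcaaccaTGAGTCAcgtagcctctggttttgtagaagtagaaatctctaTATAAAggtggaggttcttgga
Mmp10 (chr8:12974607-12974686, plus strand): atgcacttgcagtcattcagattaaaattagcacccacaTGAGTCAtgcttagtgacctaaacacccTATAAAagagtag
Mmp7 (chr8:13132943-13133022, plus strand): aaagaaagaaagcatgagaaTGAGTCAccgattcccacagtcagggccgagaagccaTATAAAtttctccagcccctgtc
A motif match is a description of the letters and not of binding. The genes that carry it did not share 1 pattern of levels, as given below.

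Total counts per library ranged from 10084584 to 12310506, and replicate libraries of a type varied with a common coefficient of variation of 8.25%. Levels below are the deposited TPM, an abundance per gene length that can be set side by side between genes. Differences are log2 fold changes from edgeR's quasi-likelihood test on the counts with TMM normalization, each with its standard error (SE), named first type against second. A gene passed the test at a Benjamini-Hochberg adjusted p under 0.01 over the 13273 tested genes of the comparison, and was a DE gene if its log2 fold change was also above 2 or below -2. With 3 libraries a type, an exact permutation test of a single gene cannot go below p = 0.10. Fibroblast markers were high in every library, with a summed TPM over 7 genes of 26196 to 31322. The Schwann cell list (7 genes) summed to 186 to 198 TPM in Fb-Epn, 255 to 262 in Fb-Par and 10.5 to 13.2 in Fb-Skn, where *Sox10*, *Erbb3* and *Cdh19* were at 0. Keratinocyte markers summed to at most 1.46 TPM and endothelial markers to at most 11.2 TPM in any library. The perineurial list summed to 156 to 163, 41.3 to 46.7 and 75.3 to 84.1 TPM in the types in the same order. Most of this was *Slc2a1*, with means of 145, 34.9 and 69.0 TPM. *Cldn1* of that list had at most 3, 7 and 0 counts, and *Lypd2* had 0 in every library. The chondrocyte list, led by *Sox9* in Fb-Epn and Fb-Skn and by *Col9a1* in Fb-Par, summed to 92.9 to 95.2, 42.0 to 43.3 and 12.9 to 15.5 TPM. In it *Col2a1* had at most 1 count in any library and *Matn1* had 0.

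Of the 45 members, 31 passed the expression filter and were tested, with 14 MMP, 14 ADAMTS and 3 TIMP genes. In Fb-Epn against Fb-Skn, 25 of the 31 passed the test, beside 43.9% of all tested genes. Of these, 13 were higher in Fb-Epn (23.0% of all genes) and 12 were lower (20.9%), and 11 were DE genes (8.44%). In Fb-Par against Fb-Skn, 24 passed (45.6% of all genes), with 14 higher (23.2%) and 10 lower (22.4%) in Fb-Par and 8 DE genes (8.54%). In Fb-Epn against Fb-Par, 24 passed (38.8% of all genes), with 11 higher (20.2%) and 13 lower (18.6%) in Fb-Epn and 9 DE genes (6.48%). The 3 comparisons share libraries and are not independent of each other. The median size of the log2 fold change was 0.70, 1.16 and 1.37 over the members in these comparisons, and 0.33, 0.34 and 0.28 over all tested genes. Some members entered the test only through the type where they were high, and such a gene had to differ. These include *Mmp7* and *Adamts16* through Fb-Epn and *Mmp3* and *Mmp10* through Fb-Skn. When at least 10 counts were asked of every library, 22 members were left, of which 19, 18 and 19 passed and 6, 4 and 3 were DE genes. Of all 11313 genes left by that filter, 4897, 5105 and 4433 passed.

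Taking the 3 comparisons together, 15 members passed in all 3 (16.5% of all tested genes), 14 in 2 of them (32.6%) and 2, *Mmp11* and *Mmp24*, in none (37.4%). By mean TPM, 17 members were highest in Fb-Par (39.7% of all tested genes), 7 in Fb-Epn (36.2%) and 7 in Fb-Skn (24.1%), and ADAMTS genes made up 10 of the 17. Higher in Fb-Par than both other types were 8 members, namely *Adamts7*, *Adamts8*, *Adamts10*, *Adamts12*, *Adamts15*, *Mmp15*, *Mmp19* and *Timp3* (11.1% of all tested genes). Higher in Fb-Epn than both others were 5, namely *Adamts1*, *Adamts16*, *Mmp7*, *Mmp12* and *Timp1* (10.6% of all genes). Higher in Fb-Skn than both others were 7, namely *Adamts2*, *Adamts6*, *Mmp2*, *Mmp3*, *Mmp10*, *Mmp17* and *Timp2* (12.6% of all genes). Lower than both others were 8 members in Fb-Epn (7.73% of all genes), namely *Adamts2*, *Adamts10*, *Adamts12*, *Mmp14*, *Mmp17*, *Mmp23*, *Timp2* and *Timp3*. In Fb-Par 7 were lower than both (10.3%), namely *Adamts1*, *Adamts6*, *Mmp2*, *Mmp3*, *Mmp9*, *Mmp10* and *Mmp16*. In Fb-Skn 9 were lower than both (13.4%), namely *Adamts3*, *Adamts4*, *Adamts5*, *Adamts7*, *Adamts9*, *Adamts14*, *Mmp15*, *Mmp19* and *Timp1*. Some calls behind these lists were lost under other settings, as given with each gene below. They include *Mmp2*, *Mmp14* and *Adamts6* in Fb-Epn against Fb-Skn and *Timp2* in Fb-Par against Fb-Skn. *Mmp3* and *Mmp10* in Fb-Epn against Fb-Par are further cases.

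**Figure D1:**
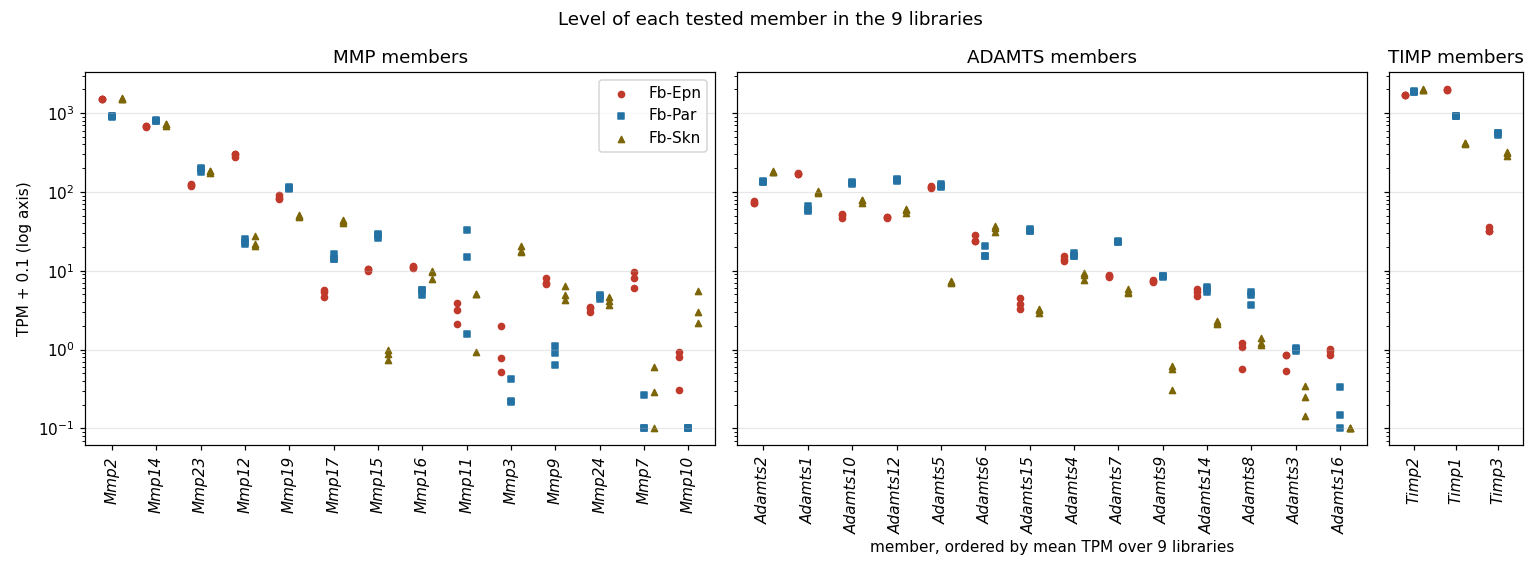
Deposited TPM of the 31 tested members in each library, on a log axis after adding 0.1, in 1 panel per family with members ordered by mean TPM over 9 libraries. Points are libraries, coloured by type; *Mmp2*, *Mmp14* and *Timp2* lie close together in all types, while *Mmp12*, *Mmp15*, *Adamts5*, *Adamts9* and *Timp3* separate by type.

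**Figure D2:**
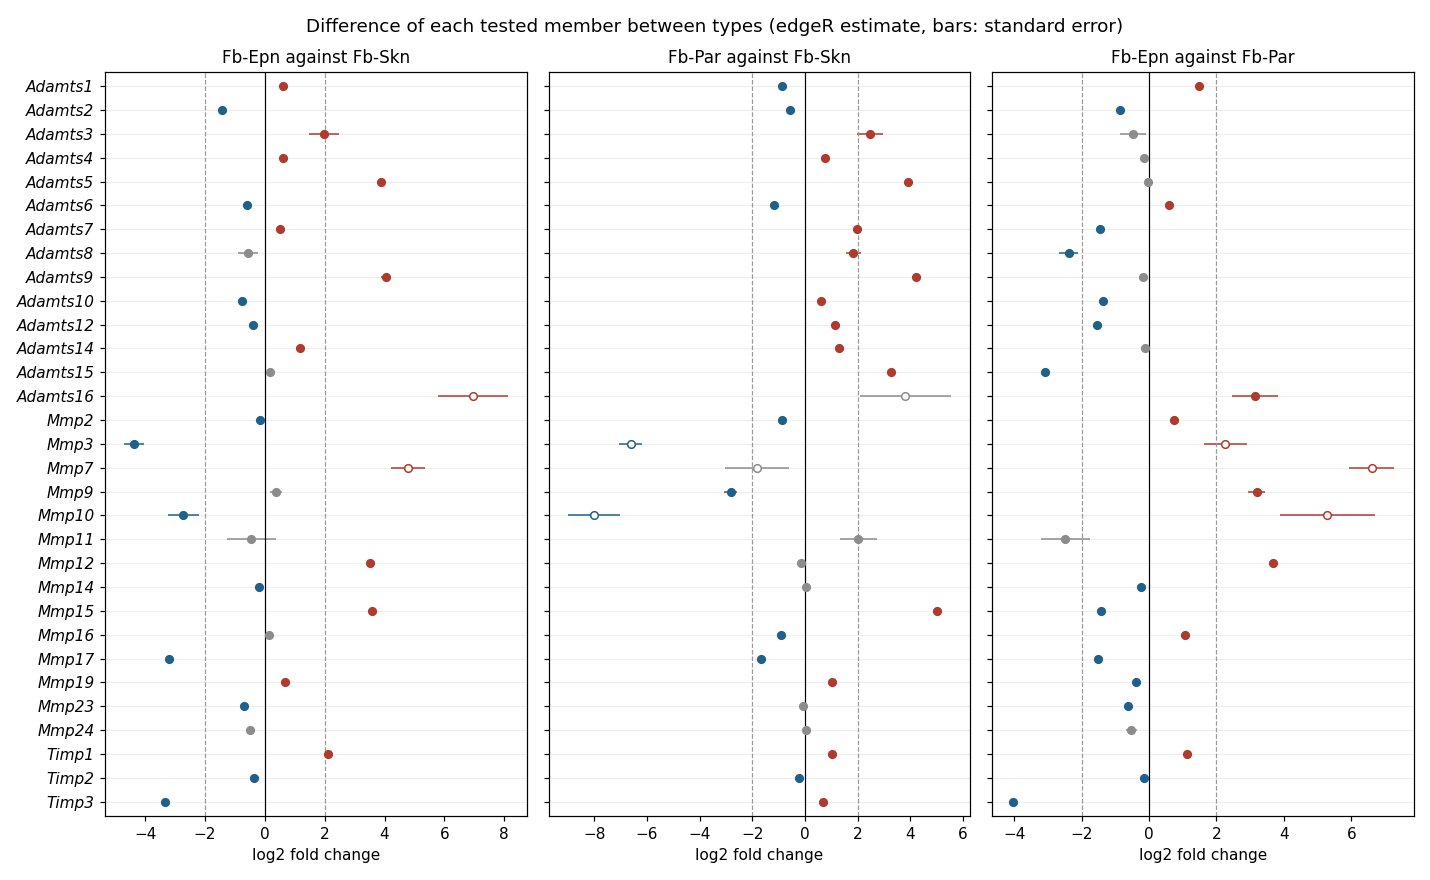
Log2 fold change of the 31 tested members in the 3 comparisons (edgeR), 1 panel each, with bars for the standard error. Red points passed the test as higher and blue as lower in the first type, grey points did not pass, dashed lines mark -2 and 2, and open points are genes with at most 3 counts in every library of the lower type.

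The collagenases were near the limit of detection in all 3 types. *Mmp13*, which encodes collagenase 3, had at most 10 counts in any library and *Mmp1* had 0 counts in all 9, which allows up to 3 counts in a library. *Mmp1b* had 1 count in 1 library. *Mmp8*, the collagenase of neutrophils, had 3, 8 and 5 counts in the Fb-Epn libraries and 0 in the other 6 libraries. None of the 4 passed the expression filter, so none was tested in the main model. When all genes with at least 1 count were kept, *Mmp8* passed as higher in Fb-Epn than Fb-Skn (adjusted p = 0.0067, edgeR) and Fb-Par (adjusted p = 0.0054).

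Among the gelatinases, *Mmp2* (gelatinase A, chromosome 19, 15542765 to 15570611) was one of the most abundant members and *Mmp9* (gelatinase B, chromosome 3, 161413298 to 161421520) was low. The TPM of *Mmp2* was 1508, 1521 and 1519 in Fb-Epn, 917, 899.6 and 928 in Fb-Par and 1518, 1543 and 1526 in Fb-Skn. The Fb-Par libraries were the 3 lowest, and the other two types overlapped. *Mmp2* was lower in Fb-Par than Fb-Skn (log2 fold change -0.89 ± 0.02 (SE), adjusted p = 1.1e-13, edgeR) and higher in Fb-Epn than Fb-Par (0.74 ± 0.02, adjusted p = 1.2e-12). The small difference between Fb-Epn and Fb-Skn (-0.15 ± 0.02, adjusted p = 3.8e-05) depended on the scaling and was lost when library size alone was used (-0.06, adjusted p = 0.026). The TPM of *Mmp9* was 6.95, 6.77 and 8 in Fb-Epn, 0.811, 0.535 and 1.02 in Fb-Par and 6.23, 4.2 and 4.76 in Fb-Skn. All 3 Fb-Par libraries lay below the other 6. *Mmp9* was a DE gene against both, 9.13-fold higher in Fb-Epn than Fb-Par (log2 fold change 3.19 ± 0.24, adjusted p = 4.3e-08, edgeR) and 7.08-fold lower in Fb-Par than Fb-Skn (adjusted p = 1.8e-07). Fb-Epn and Fb-Skn had a log2 fold change of 0.37 ± 0.19 for *Mmp9* (adjusted p = 0.12).

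The stromelysins *Mmp3* and *Mmp10*, enzymes with broad matrix substrates that can also activate other proenzymes, were highest in Fb-Skn and near 0 in Fb-Par. The TPM of *Mmp3* (chromosome 8, 5676665 to 5698579) was 1.86, 0.413 and 0.691 in Fb-Epn, 0.32, 0.123 and 0.117 in Fb-Par and 17, 20.8 and 17.5 in Fb-Skn, with 143 to 169 counts in Fb-Skn and at most 16 elsewhere. Every Fb-Skn library was above every nerve-derived library. *Mmp3* was 20.6-fold lower in Fb-Epn than Fb-Skn (log2 fold change -4.36 ± 0.33, adjusted p = 4.6e-08, edgeR). In Fb-Par, where no library had over 3 counts, it was at least 58.7-fold lower than Fb-Skn (adjusted p = 6.5e-09). The TPM of *Mmp10* (chromosome 8, 5734348 to 5742243) was 0.818, 0.207 and 0.693 in Fb-Epn, 0 in all Fb-Par libraries and 2.05, 5.43 and 2.94 in Fb-Skn. The types did not overlap, though the Fb-Skn libraries differed among themselves with 19, 44 and 24 counts. Both *Mmp3* and *Mmp10* entered the test only through Fb-Skn, so their p-values against Fb-Skn are not separate support for a difference. *Mmp10* was 6.6-fold lower in Fb-Epn than Fb-Skn (log2 fold change -2.72 ± 0.53, adjusted p = 7.9e-04, edgeR) and at least 11-fold lower in Fb-Par than Fb-Skn (adjusted p = 2.1e-05). Between Fb-Epn and Fb-Par both genes passed narrowly, with an adjusted p of 0.0085 for *Mmp3* and 0.0076 for *Mmp10*, and against the floor of 3 counts their folds were only at least 2.86 and 1.65. Without Fb-Epn replicate 1 the adjusted p became 0.093 for *Mmp3* and 0.023 for *Mmp10*. Leaving out any of 7 libraries lost the call for *Mmp3* and any of 6 lost it for *Mmp10*, and with the replicate number as a block the adjusted p was 0.0125 and 0.0153.

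The third stromelysin by name, *Mmp11* (stromelysin 3), varied widely between libraries of a type, and its calls depended on the filter and on single libraries. Its counts were 23, 40 and 44 in Fb-Epn, 415, 16 and 172 in Fb-Par and 63, 9 and 55 in Fb-Skn. The lowest Fb-Par library was below every Fb-Epn library, while the other two Fb-Par libraries were the highest of all. Fb-Epn against Fb-Par gave a log2 fold change of -2.48 ± 0.73 (adjusted p = 0.012, edgeR), and Fb-Par against Fb-Skn gave 2.03 ± 0.72 (adjusted p = 0.026). Without Fb-Par replicate 2 both passed (adjusted p = 1.5e-04 and 3.9e-04), and without Fb-Skn replicate 2 the first passed narrowly (adjusted p = 0.0099). With all libraries, both passed when every gene with at least 1 count was kept (adjusted p = 1.4e-06 and 3.2e-05). In rn6 *Mmp11* is on an unplaced contig. The next gene there, *LOC103694876*, also varied within types, with 274, 11 and 112 counts in Fb-Epn, 235, 12 and 5 in Fb-Par and 8, 246 and 142 in Fb-Skn. On chromosome 20, *LOC103694874*, *Smarcb1* and *LOC103694875*, which have an order, strands and spacing like those of *Mmp11*, *LOC103694876* and *Derl3* on the contig, had 0 counts in every library. *LOC103694872*, which lies before them on chromosome 20, had 0, 1 and 1 counts in Fb-Epn, 18, 1 and 7 in Fb-Par and 4, 0 and 0 in Fb-Skn. Whether near-identical copies of this stretch shared reads was not tested, and *Mmp11* is reported as uncertain.

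Of the tested cluster genes, *Mmp12* and *Mmp7* were highest in Fb-Epn. The TPM of *Mmp12* (macrophage elastase, chromosome 8, 5606592 to 5616493) was 280.4, 304 and 299 in Fb-Epn, 24.9, 21.9 and 22.8 in Fb-Par and 21.9, 20.8 and 27.1 in Fb-Skn. The Fb-Epn libraries stood far above the other 6, which overlapped. *Mmp12* was 12.8-fold higher in Fb-Epn than Fb-Par (log2 fold change 3.67 ± 0.08, adjusted p = 2.0e-14, edgeR) and 11.5-fold higher than Fb-Skn (3.52 ± 0.08, adjusted p = 3.2e-14). Fb-Par and Fb-Skn had a log2 fold change of -0.15 ± 0.09 (adjusted p = 0.18). The TPM of *Mmp7* (matrilysin, the smallest MMP, which lacks the hemopexin domain, chromosome 8, 5893249 to 5901049) was 9.67, 7.92 and 6.02 in Fb-Epn, 0.164, 0 and 0 in Fb-Par and 0.495, 0 and 0.187 in Fb-Skn. It had 34 to 54 counts in Fb-Epn libraries and at most 3 in any other library. It thus entered the test only through Fb-Epn, and its p-values are not separate support for a difference. *Mmp7* was at least 14.8-fold higher in Fb-Epn than Fb-Par (adjusted p = 1.2e-06, edgeR) and at least 13.2-fold higher than Fb-Skn (adjusted p = 4.2e-06).

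Macrophage and leukocyte markers were also highest in Fb-Epn. All 7 genes of that list were higher in Fb-Epn than both other types, and all 7 were higher in Fb-Par than Fb-Skn. Their summed TPM was 1160 to 1229 in Fb-Epn, 227 to 243 in Fb-Par and 76.2 to 82.4 in Fb-Skn, and no marker was at 0 in all libraries of a type. Most of the sum was *Lyz2*, lysozyme, with a mean TPM of 957, 178 and 60.6, while *Ptprc*, the pan-leukocyte antigen, had 5.8, 1.44 and 0.361. Between Fb-Par and Fb-Skn, neither *Mmp12* nor *Mmp7* passed the test. *Mmp9*, which leukocytes also make, was lowest in Fb-Par. The part of leukocytes in these results was not tested, and in bulk RNA fewer cells of a type and less RNA per cell cannot be told apart.

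**Figure D3:**
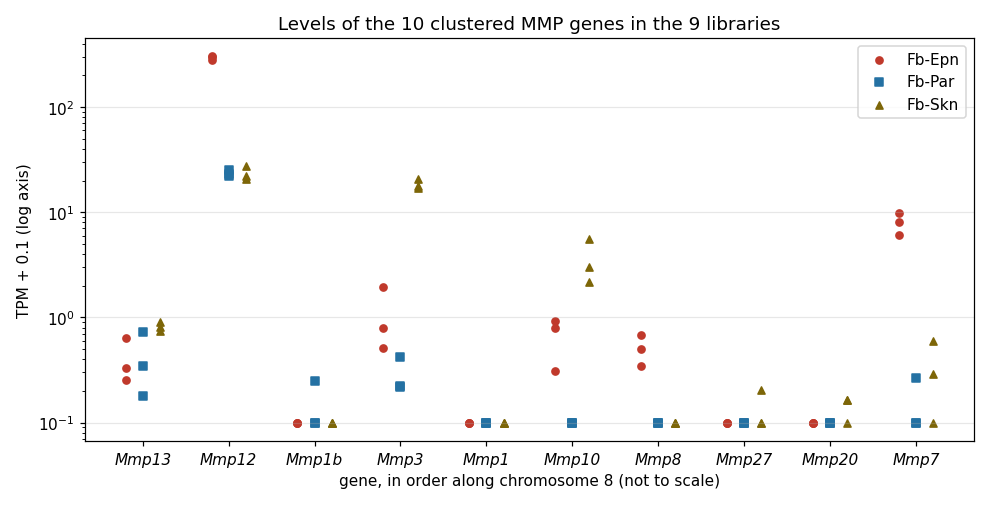
Deposited TPM of the 10 clustered MMP genes in each library, on a log axis after adding 0.1, with genes in their order along chromosome 8 and points coloured by type. *Mmp12* and *Mmp7* are highest in Fb-Epn and *Mmp3* and *Mmp10* in Fb-Skn, while the other 6 genes stay below 1 TPM in every library.

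Among the membrane-type MMPs, *Mmp15* and *Mmp17* had opposite orders of the types and *Mmp14* was high in all. The TPM of *Mmp14* (MT1-MMP, an activator of pro-gelatinase A, chromosome 15, 33074441 to 33083655) was 678, 669 and 684 in Fb-Epn, 791, 789 and 809 in Fb-Par and 677, 720.1 and 719 in Fb-Skn. The Fb-Par libraries were the highest, and the other two types overlapped. *Mmp14* was 1.17-fold lower in Fb-Epn than Fb-Par (log2 fold change -0.22 ± 0.03, adjusted p = 4.5e-06, edgeR) and 1.15-fold lower than Fb-Skn (-0.20 ± 0.03, adjusted p = 1.3e-05), the second of which was lost on the TPM scale (adjusted p = 0.13, limma). Fb-Par and Fb-Skn had a log2 fold change of 0.02 ± 0.03 for *Mmp14* (adjusted p = 0.44), which passed as higher in Fb-Par on the TPM scale (0.18, adjusted p = 8.3e-04, limma). The TPM of *Mmp15* (MT2-MMP, chromosome 19, 10079765 to 10101451) was 10.5, 9.72 and 10.4 in Fb-Epn, 28.9, 28 and 25.7 in Fb-Par and 0.641, 0.892 and 0.781 in Fb-Skn. All 3 types were apart. *Mmp15* was 32.1-fold higher in Fb-Par than Fb-Skn (log2 fold change 5.01 ± 0.12, adjusted p = 8.1e-14, edgeR), 12-fold higher in Fb-Epn than Fb-Skn (3.59 ± 0.13, adjusted p = 1.0e-11) and 2.67-fold lower in Fb-Epn than Fb-Par (adjusted p = 2.4e-09).

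The TPM of *Mmp17* (MT4-MMP, which is held in the membrane by a lipid anchor, chromosome 12, 30702571 to 30728655) was 5.22, 5.56 and 4.53 in Fb-Epn, 14, 16.1 and 13.9 in Fb-Par and 40.7, 44.5 and 42.5 in Fb-Skn. The types were again apart, with Fb-Skn the highest and Fb-Epn the lowest. *Mmp17* was 9.15-fold lower in Fb-Epn than Fb-Skn (log2 fold change -3.19 ± 0.09, adjusted p = 8.8e-13, edgeR) and 3.22-fold lower in Fb-Par than Fb-Skn (-1.69 ± 0.08, adjusted p = 2.8e-10). *Mmp16* (MT3-MMP) had a mean TPM of 11 ± 0.298 (SD, n = 3) for Fb-Epn, 5.34 ± 0.454 for Fb-Par and 9.02 ± 1.1 for Fb-Skn. It was lower in Fb-Par than both others, with a log2 fold change of -0.91 ± 0.12 against Fb-Skn (adjusted p = 1.3e-05, edgeR). *Mmp24* (MT5-MMP) had a mean TPM of 3.18 ± 0.248 (SD, n = 3) for Fb-Epn, 4.59 ± 0.338 for Fb-Par and 4.04 ± 0.507 for Fb-Skn, and its smallest adjusted p was 0.011, in Fb-Epn against Fb-Par. That difference passed narrowly with RLE size factors (adjusted p = 0.00995) and with at least 10 counts in every library (adjusted p = 0.0099).

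*Mmp23* and *Mmp19* were the remaining MMPs with more than a trace. The TPM of *Mmp23* (chromosome 5, 173078590 to 173081839), an MMP with a membrane-anchored propeptide, was 125, 124 and 118 in Fb-Epn, 181, 193 and 200.3 in Fb-Par and 184, 184 and 172 in Fb-Skn. The Fb-Epn libraries were the 3 lowest, and the other two types overlapped. *Mmp23* was 1.62-fold lower in Fb-Epn than Fb-Skn (log2 fold change -0.70 ± 0.05, adjusted p = 2.2e-08, edgeR) and 1.55-fold lower than Fb-Par (adjusted p = 6.5e-08). *Mmp19* had a mean TPM of 85.8 ± 5.99 (SD, n = 3) for Fb-Epn, 112 ± 2.88 for Fb-Par and 49.3 ± 1.23 for Fb-Skn. It was higher in Fb-Par (1.03 ± 0.06, adjusted p = 8.1e-10) and in Fb-Epn (0.66 ± 0.06, adjusted p = 1.7e-07) than Fb-Skn (log2 fold change, edgeR). *Mmp20* (enamelysin), *Mmp21* and *Mmp27* had at most 1 count in any library, and *Mmp28* (epilysin) had 0 counts in all 9.

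Of the 7 hyalectanases, 6 were tested. In Fb-Par against Fb-Skn 5 were higher and 1 lower (23.2% and 22.4% of all tested genes), in Fb-Epn against Fb-Skn 4 were higher and 0 lower (23.0% and 20.9%), and in Fb-Epn against Fb-Par 1 was higher and 2 lower (20.2% and 18.6%). The median log2 fold change over the 6 genes was 2.55, 0.61 and -0.17 in these comparisons, beside -0.012, -0.0028 and -1.8e-04 over all tested genes.

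The TPM of *Adamts5* (aggrecanase 2, chromosome 11, 25410975 to 25456836) was 116, 119.9 and 112 in Fb-Epn, 119.98, 125 and 114 in Fb-Par and 7.04, 6.94 and 7.28 in Fb-Skn. Both nerve-derived types were far above Fb-Skn and overlapped each other. *Adamts5* was 14.9-fold higher in Fb-Epn (log2 fold change 3.89 ± 0.06, adjusted p = 7.6e-16, edgeR) and 15.2-fold higher in Fb-Par (3.93 ± 0.06, adjusted p = 5.1e-16) than Fb-Skn. Its log2 fold change was -0.03 ± 0.04 in Fb-Epn against Fb-Par (adjusted p = 0.59). *Adamts9* (chromosome 4, 124660262 to 124858250), a large family member that also cuts versican, had the same order at a lower level. Its TPM was 7.57, 7.39 and 7.17 in Fb-Epn, 8.49, 8.26 and 8.53 in Fb-Par and 0.461, 0.211 and 0.523 in Fb-Skn. No Fb-Skn library came near the nerve-derived ones. *Adamts9* was 16.6-fold higher in Fb-Epn (log2 fold change 4.05 ± 0.17, adjusted p = 5.0e-11, edgeR) and 18.8-fold higher in Fb-Par (4.23 ± 0.17, adjusted p = 2.4e-11) than Fb-Skn. The Schwann cell markers given above were also higher than in Fb-Skn, 6 of 7 in Fb-Epn and 7 of 7 in Fb-Par. In Fb-Epn against Fb-Par 6 of the 7 markers were lower, while neither *Adamts5* nor *Adamts9* (adjusted p = 0.21, edgeR) passed the test. Endothelial markers given above also had their lowest sums in Fb-Skn. The part of Schwann or endothelial cells in these results was not tested. *Adamts4* (aggrecanase 1) was higher by smaller folds, 1.52 in Fb-Epn (adjusted p = 3.3e-05) and 1.69 in Fb-Par (adjusted p = 2.7e-06, edgeR), at a mean TPM of 14.1 ± 1.03, 15.9 ± 0.823 and 8.48 ± 0.946 (SD, n = 3).

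*Adamts15* and *Adamts8*, neighbours 18181 bp apart on chromosome 8 of rn6, were both highest in Fb-Par. The TPM of *Adamts15* (chromosome 8, 31977001 to 32000378) was 3.22, 4.36 and 3.7 in Fb-Epn, 31.6, 33.8 and 31.7 in Fb-Par and 2.78, 3.19 and 3.09 in Fb-Skn. The Fb-Par libraries alone were high. *Adamts15* was 9.67-fold higher in Fb-Par than Fb-Skn (log2 fold change 3.27 ± 0.09, adjusted p = 6.4e-13, edgeR) and 8.51-fold lower in Fb-Epn than Fb-Par (-3.09 ± 0.09, adjusted p = 9.7e-13). The TPM of *Adamts8* (chromosome 8, 32018560 to 32037531), known for blocking vessel growth, was 0.461, 0.991 and 1.11 in Fb-Epn, 5.25, 4.81 and 3.58 in Fb-Par and 1.03, 1.11 and 1.31 in Fb-Skn. Its Fb-Par libraries were above the other 6, which overlapped. *Adamts8* was 5.23-fold lower in Fb-Epn than Fb-Par (log2 fold change -2.39 ± 0.29, adjusted p = 8.4e-06, edgeR) and 3.55-fold higher in Fb-Par than Fb-Skn (1.83 ± 0.28, adjusted p = 6.8e-05).

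*Adamts1* and *Adamts5* are also neighbours, 60000 bp apart on chromosome 11, but had different patterns. The TPM of *Adamts1* (chromosome 11, 25342126 to 25350974), a versican- and aggrecan-cutting enzyme, was 173, 168 and 168 in Fb-Epn, 58.2, 57.8 and 66.2 in Fb-Par and 97.6, 102 and 101 in Fb-Skn. All types were apart, with Fb-Epn highest and Fb-Par lowest. *Adamts1* was 2.81-fold higher in Fb-Epn than Fb-Par (log2 fold change 1.49 ± 0.05, adjusted p = 1.8e-12, edgeR), 1.54-fold higher than Fb-Skn (0.62 ± 0.05, adjusted p = 2.7e-08) and 1.83-fold lower in Fb-Par than Fb-Skn (adjusted p = 8.1e-10). *Adamts20*, which is known for pigment cell migration in skin, did not pass the filter and had at most 25 counts in Fb-Skn and at most 4 in the other types. Without the filter *Adamts20* passed as lower than Fb-Skn in Fb-Epn (adjusted p = 8.7e-04, edgeR) and in Fb-Par (adjusted p = 3.6e-04).

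The procollagen N-proteinases went different ways. The TPM of *Adamts2* (chromosome 10, 36098051 to 36304409), the main enzyme that removes the amino propeptide of type I procollagen, was 72.3, 71.9 and 76 in Fb-Epn, 134, 136 and 135 in Fb-Par and 179, 179 and 182 in Fb-Skn. Fb-Skn was the highest and Fb-Epn the lowest, with no overlap. *Adamts2* was 2.7-fold lower in Fb-Epn than Fb-Skn (log2 fold change -1.43 ± 0.03, adjusted p = 3.3e-14, edgeR), 1.48-fold lower in Fb-Par than Fb-Skn (-0.57 ± 0.03, adjusted p = 7.9e-10) and 1.83-fold lower in Fb-Epn than Fb-Par (adjusted p = 9.8e-12). Its substrate *Col1a1* had a mean TPM of 15869, 13724 and 21077 in these types in the same order. The TPM of *Adamts3* (chromosome 14, 19866408 to 20070994), which also processes a growth factor of lymphatic vessels, was 0.427, 0.756 and 0.751 in Fb-Epn, 0.956, 0.854 and 0.907 in Fb-Par and 0.0437, 0.15 and 0.248 in Fb-Skn. It was low everywhere, with at most 22 counts, and lowest in Fb-Skn. *Adamts3* was 5.52-fold higher in Fb-Par than Fb-Skn (log2 fold change 2.46 ± 0.48, adjusted p = 5.6e-04, edgeR). In Fb-Epn against Fb-Skn it passed (1.99 ± 0.50, adjusted p = 0.0039), and lost the call when Fb-Epn replicate 2 or 3 or Fb-Skn replicate 1 or 2 was left out (adjusted p of 0.014 to 0.021). *Adamts14* had a mean TPM of 5.21 ± 0.552, 5.71 ± 0.375 and 2.08 ± 0.0998 (SD, n = 3) and was higher in Fb-Epn (1.18 ± 0.14, adjusted p = 3.8e-06) and Fb-Par (1.31 ± 0.14, adjusted p = 1.2e-06, edgeR) than Fb-Skn.

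Of the other ADAMTS genes, 5 of 9 were tested. *Adamts7* and *Adamts12*, which are known to cut cartilage oligomeric matrix protein, and *Adamts10*, which is tied to fibrillin microfibrils, were higher in Fb-Par than both other types. *Adamts12* had a mean TPM of 47.8 ± 0.894 (SD, n = 3) for Fb-Epn, 141 ± 4.13 for Fb-Par and 57.7 ± 3.77 for Fb-Skn. Its log2 fold change was 1.14 ± 0.04 in Fb-Par against Fb-Skn (adjusted p = 5.1e-12, edgeR) and -1.55 ± 0.04 in Fb-Epn against Fb-Par (adjusted p = 2.6e-13). *Adamts10* had 49.98 ± 3.14, 129.7 ± 2.59 and 76.3 ± 4.2 TPM (SD, n = 3) in the types in the same order, and log2 fold changes of 0.61 ± 0.05 (Fb-Par against Fb-Skn, adjusted p = 1.1e-07) and -1.37 ± 0.05 (Fb-Epn against Fb-Par, adjusted p = 1.9e-11, edgeR). *Adamts7* had 8.5 ± 0.274, 23.6 ± 0.371 and 5.39 ± 0.388 TPM (SD, n = 3), with log2 fold changes of 1.98 ± 0.07 (adjusted p = 6.0e-12) and -1.46 ± 0.07 (adjusted p = 1.3e-10, edgeR) in the same comparisons. *Adamts6* went the other way, higher in Fb-Skn than Fb-Epn (-0.58 ± 0.10, adjusted p = 2.2e-04) and than Fb-Par (-1.16 ± 0.11, adjusted p = 3.1e-07, edgeR), at a mean TPM of 25.3 ± 2.45, 17 ± 2.96 and 34.4 ± 2.9 (SD, n = 3). The first of these calls was lost on the TPM scale (-0.43, adjusted p = 0.013, limma).

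*Adamts16* (chromosome 1, 35067490 to 35198939) was a trace transcript of Fb-Epn. Its TPM was 0.761, 0.914 and 0.86 in Fb-Epn, 0.0498, 0.23 and 0 in Fb-Par and 0 in all Fb-Skn libraries, with counts of 14, 19 and 16 in Fb-Epn and 1, 4 and 0 in Fb-Par. No Fb-Epn library overlapped the others. The gene entered the test only through Fb-Epn, so its p-values are not separate support for a difference. *Adamts16* was at least 4.67-fold higher in Fb-Epn than Fb-Skn (adjusted p = 2.4e-04, edgeR) and 8.86-fold higher than Fb-Par (log2 fold change 3.15 ± 0.68, adjusted p = 0.002), a call lost without Fb-Par replicate 1 (adjusted p = 0.015). *Adamts13*, the protease of von Willebrand factor, had at most 3 counts, *Adamts17* at most 11, *Adamts18* at most 1 and *Adamts19* at most 8. None of these 4 was tested in the main model. Without the filter *Adamts19* passed as higher in Fb-Par than Fb-Skn (adjusted p = 0.0026, edgeR).

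The inhibitors differed in make-up. *Timp1* and *Timp3* were DE genes, while *Timp2*, abundant in every library, differed by at most 1.3-fold. The TPM of *Timp1* (chromosome X, 1364786 to 1369384) was 2009, 1979 and 1957 in Fb-Epn, 931, 924 and 909.96 in Fb-Par and 401, 413 and 420.3 in Fb-Skn. Fb-Epn was the highest and Fb-Skn the lowest, with no overlap. *Timp1* was 4.37-fold higher in Fb-Epn than Fb-Skn (log2 fold change 2.13 ± 0.03, adjusted p = 3.9e-16, edgeR), 2.17-fold higher in Fb-Epn than Fb-Par (1.11 ± 0.03, adjusted p = 2.5e-13) and 2.02-fold higher in Fb-Par than Fb-Skn (adjusted p = 9.1e-13). The TPM of *Timp3* (chromosome 7, 23544215 to 23594133), the TIMP that binds to the matrix and also inhibits aggrecanases, was 32, 31.9 and 35.5 in Fb-Epn, 557, 534 and 556 in Fb-Par and 286, 318 and 313 in Fb-Skn. Its lowest type was Fb-Epn, by a wide gap. *Timp3* was 16.4-fold lower in Fb-Epn than Fb-Par (log2 fold change -4.04 ± 0.05, adjusted p = 8.8e-17, edgeR), 10.2-fold lower than Fb-Skn (-3.34 ± 0.05, adjusted p = 5.5e-16) and 1.62-fold higher in Fb-Par than Fb-Skn (adjusted p = 1.9e-09).

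The summed TPM of the 5 pericyte and smooth muscle markers had the same order of types as *Timp3*, with 41.5 to 48.0 in Fb-Epn, 316 to 333 in Fb-Par and 150 to 155 in Fb-Skn, and *Rgs5* at 0 in all Fb-Skn libraries. *Myh11* and *Cspg4* carried most of the sum and had this order, while 3 of the 5, *Notch3*, *Rgs5* and *Des*, were higher in Fb-Epn than Fb-Skn, opposite to *Timp3*. In Fb-Epn against Fb-Par 4 markers were lower and *Des* was higher. Their part in the difference was not tested.

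The TPM of *Timp2* (chromosome 10, 107338465 to 107386072), which also takes part in activating pro-gelatinase A with MT1-MMP, was 1689, 1682 and 1687 in Fb-Epn, 1893, 1857 and 1873 in Fb-Par and 1955, 1971 and 2033 in Fb-Skn. The types did not overlap, and Fb-Skn was the highest. *Timp2* was 1.3-fold lower in Fb-Epn than Fb-Skn (log2 fold change -0.38 ± 0.02, adjusted p = 3.2e-09, edgeR), 1.1-fold lower in Fb-Epn than Fb-Par (adjusted p = 1.1e-04) and 1.18-fold lower in Fb-Par than Fb-Skn (adjusted p = 5.8e-07), the last of which was lost on the TPM scale (-0.08, adjusted p = 0.017, limma). *Timp4* had at most 7 counts in any library and 0 in Fb-Skn, and was not tested in the main model. With every gene with at least 1 count kept, *Timp4* passed as higher than Fb-Skn in Fb-Epn (adjusted p = 0.0044, edgeR) and in Fb-Par (adjusted p = 0.0024). *Timp1*, *Timp3* and *Timp4* each lie inside a synapsin gene on its other strand, and these synapsin genes had at most 49, 12 and 2 counts in any library.

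Summed over its 4 genes, TIMP made up 3701 ± 26.1 TPM (SD, n = 3) for Fb-Epn, 3345 ± 33.6 for Fb-Par and 2704 ± 62.6 for Fb-Skn. *Timp1* gave 53.5% of that sum for Fb-Epn, 27.5% for Fb-Par and 15.2% for Fb-Skn, *Timp2* gave 45.6%, 56.0% and 73.5%, and *Timp3* gave 0.896%, 16.4% and 11.3%. MMP transcripts summed to 2745 ± 17.6 TPM (SD, n = 3), 2108 ± 34.9 and 2575 ± 38.6, and *Mmp2* with *Mmp14* led each sum. ADAMTS transcripts summed to 524 ± 2.75, 695 ± 1.35 and 477 ± 9.87 TPM (SD, n = 3). The leading ADAMTS gene differed by type, with *Adamts1* at 32.3% of the sum in Fb-Epn, *Adamts12* at 20.3% in Fb-Par and *Adamts2* at 37.7% in Fb-Skn. TIMP transcripts per MMP and ADAMTS transcript came to 1.13 ± 0.0138 (SD, n = 3) for Fb-Epn, 1.19 ± 0.0148 for Fb-Par and 0.886 ± 0.0142 for Fb-Skn. The libraries of the types did not overlap in this ratio, and an exact permutation test cannot go below p = 0.10 with 3 against 3. On counts per length scaled with TMM, the MMP sum of Fb-Skn (2751) was above that of Fb-Epn (2654) and the ADAMTS sums were 511 and 507, so the order of these types in both sums depends on the scaling.

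**Figure D4:**
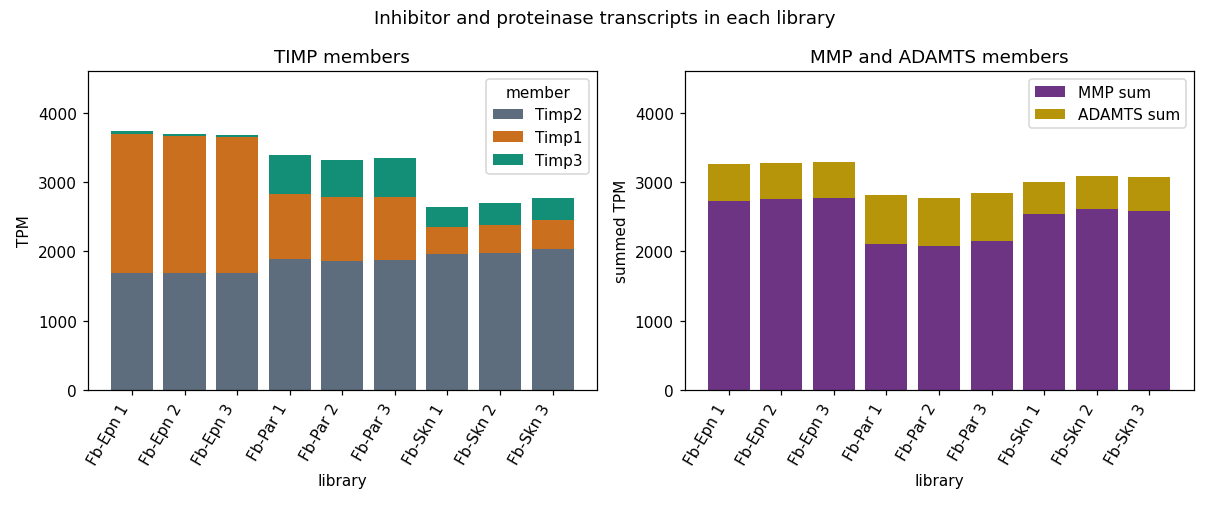
Deposited TPM per library of *Timp2*, *Timp1* and *Timp3* stacked (left) and the summed TPM of the MMP and ADAMTS members stacked (right), for 3 libraries of each type, both axes from 0. The *Timp1* share falls from 53.5% in Fb-Epn to 15.2% in Fb-Skn, *Timp3* is a thin band in Fb-Epn alone, and MMP sums are lowest in Fb-Par.

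Genes that work with these enzymes were taken from a list of 39, of which 36 were in the files and 32 were tested. In Fb-Epn against Fb-Skn 20 were higher and 8 lower, in Fb-Par against Fb-Skn 20 were higher and 9 lower, and in Fb-Epn against Fb-Par 12 were higher and 16 lower (43.9%, 45.6% and 38.8% of all tested genes passed). The list holds 9 DE genes. *Plau*, the urokinase that activates plasminogen, had a mean TPM of 53.4 ± 2.64 (SD, n = 3) for Fb-Epn, 18.7 ± 1.78 for Fb-Par and 4.73 ± 0.481 for Fb-Skn, and was 10.2-fold higher in Fb-Epn than Fb-Skn (adjusted p = 2.5e-12, edgeR). *Plat*, the tissue plasminogen activator, was highest in Fb-Par at 284 ± 5.62 TPM, 5.49-fold above Fb-Skn (adjusted p = 4.3e-12). Both enzymes make plasmin, which can activate several MMPs, while their substrate *Plg* did not pass the filter. Among inhibitors, *Tfpi2* was 4.39-fold higher in Fb-Epn than Fb-Skn (adjusted p = 1.1e-11), and *A2m*, alpha-2-macroglobulin, was 19.1-fold higher in Fb-Epn and 26.2-fold higher in Fb-Par than Fb-Skn (adjusted p = 2.3e-04 and 6.5e-05, edgeR), where no library had over 5 counts.

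All 9 ADAM genes of the list, membrane-bound relatives of the ADAMTS enzymes, were tested. *Adam8*, which leukocytes also express, had a mean TPM of 7.82 ± 1.52 (SD, n = 3) for Fb-Epn, 0.602 ± 0.255 for Fb-Par and 1.03 ± 0.689 for Fb-Skn. It was 13.1-fold higher in Fb-Epn than Fb-Par (adjusted p = 1.6e-06, edgeR) and 6.95-fold higher than Fb-Skn (adjusted p = 1.2e-05), beside the higher leukocyte markers of Fb-Epn given above. In Fb-Par against Fb-Skn, where all 7 of these markers were higher, *Adam8* did not pass (log2 fold change -0.91 ± 0.47, adjusted p = 0.12, edgeR). *Adam33* was 4.65-fold lower in Fb-Epn than Fb-Skn (adjusted p = 1.8e-12, edgeR), with 217 ± 4.14 TPM in Fb-Skn. *Adamtsl3*, an ADAMTS-like protein without a catalytic domain, had 20.6 ± 1.13, 7.68 ± 0.0922 and 1.92 ± 0.501 TPM (SD, n = 3) and was 9.76-fold higher in Fb-Epn than Fb-Skn (adjusted p = 8.6e-12, edgeR). Of the hyalectan substrates, *Vcan*, versican, was at 136 ± 6.1 TPM for Fb-Epn, 58.2 ± 1.84 for Fb-Par and 112 ± 9.3 for Fb-Skn (SD, n = 3). Its means had the same order of types as those of *Adamts1* (170, 60.8 and 100 TPM). *Adamts15* and *Adamts8* were instead highest in Fb-Par, where *Vcan* was lowest, and *Adamts5* had means of 116, 120 and 7.09 TPM. Links between these enzymes and *Vcan* were not tested. *Acan*, aggrecan, and *Ncan*, neurocan, were DE genes at low levels, at most 1.66 and 0.855 mean TPM, both highest in Fb-Par.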

How the data were processed

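RNA was sequenced from 9 libraries, 3 for each of the types Fb-Epn, Fb-Par and Fb-Skn, as poly(A) directional libraries with paired reads of 150 bp. Per the labels, the authors used FastQC 0.11.7, Trimmomatic 0.38, HISAT2 2.1.0 and featureCounts 1.6.3 with the genome build rn6. The annotation release and the strand setting of the counting are not given in the sources used here. The authors deposited raw counts per gene, which were used for every test, and TPM for the same genes, which were used for levels. A deposited FPKM table was not used.

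Types and replicate numbers came from the sample titles. Deviations of same-numbered libraries correlated between -0.080 and 0.020, so no shared effect of the number was seen and the main model had no block. With 3 libraries a type this cannot show that the libraries were unpaired. No 2 libraries of a type agreed within sampling noise (chi-square per gene of 3.18 to 5.45). Counts were analysed with edgeR 4.0.16 in R 4.3.3 (TMM factors of 0.955 to 1.03, the default expression filter, quasi-likelihood F test) in 1 model of all 9 libraries, with adjustment over all 13273 tested genes. SE is the log2 fold change divided by the square root of F. Where no library of the lower type held over 3 counts, the fold is a lower bound against a floor of 3 counts per library, which covers counting error only. The model was tested on simulated data for Fb-Epn against Fb-Skn, where 75 of 100 genes changed 1.5-fold and 100 of 100 changed 4-fold were recovered, and 1 of 12848 unchanged genes was called. Every simulated gene had the common coefficient of variation, and only genes above a minimum mean count were changed. These rates therefore do not cover genes near 0 counts or genes as variable as *Mmp11*.

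DE members and members with a mean TPM of at least 100 are given with every library. Other members are given by means, or by their highest count where they failed the filter, and partner genes where they were DE genes. The member rule uses symbols alone, but this rule and the partner and marker lists were chosen with earlier results of these data known. Of the listed partners and markers, 7 symbols were not matched in the files. Alternatives were RLE size factors, library size only, other filters, DESeq2 1.42.0, limma 3.58.1 on log2 TPM with pseudocounts of 1 and 0.1, each library left out, 2 types at a time, the replicate number as a block and an adjusted p of 0.05. Promoter windows are from RefSeq on GRCr8, and gene positions are those of the files on rn6. No coordinates were converted between them. The value of 1 gene of the Schwann cell list, which is counted in that list's sums, is not reported here.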

Additional observations from a re-analysis of the deposited data

How the results depend on the processing

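Of the 73 calls of single members, 65 stayed past the threshold under every alternative that gave a value, and 0 changed direction. The numbers of members higher and lower stayed within 1.5 times of those given, with 1 exception. With at least 10 counts in every library, 6 members were higher in Fb-Epn than Fb-Par, beside 2254 of 11313 tested genes. That filter, which leaves 22 members and removes those near 0 in a type, also left 6 DE members in Fb-Epn against Fb-Skn, 4 in Fb-Par against Fb-Skn and 3 in Fb-Epn against Fb-Par, where limma on log2(TPM + 1) left 5. With each library left out, DE members numbered 11 to 13, 8 to 10 and 6 to 9 in these comparisons.

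Differences that did not pass the test changed sign in some cases. In Fb-Par against Fb-Skn, the log2 fold change of *Mmp23* became 0.033 with library size only and 0.089 with limma at pseudocounts of 1 and 0.1, that of *Mmp12* became 0.0020 and 0.0024 with limma at these, and that of *Mmp24* ranged from -0.055 (without Fb-Skn replicate 3) over -0.008 (without Fb-Par replicate 3) to 0.12 (without Fb-Skn replicate 2). *Mmp11* in Fb-Epn against Fb-Skn became 0.029 with limma at a pseudocount of 0.1. The cause was not tested. The scaling mattered most against Fb-Skn. With library size only, the share of called genes that were higher went from 52.3% to 63.7% in Fb-Epn and from 50.8% to 61.9% in Fb-Par, and with limma on log2(TPM + 1) the median of all genes moved by 0.13 and 0.14. Differences from Fb-Skn of that size, such as those of *Mmp2*, *Mmp14* and *Timp2*, are best read relative to this shift.

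With the replicate number as a block, 13 members were higher and 12 lower in Fb-Epn than Fb-Skn, 14 and 10 in Fb-Par than Fb-Skn, and 9 and 13 in Fb-Epn than Fb-Par, where the calls of *Mmp3* and *Mmp10* were lost. Of all 13273 genes, 5580, 5799 and 4859 passed in these comparisons with the block. The block changed no other call of a member. With every gene with at least 1 count kept, 12 members below the filter could be fitted and 4 passed in at least 1 comparison (*Adamts19*, *Adamts20*, *Mmp8* and *Timp4*), each with at most 25 counts in any library, and DE members numbered 14, 12 and 11. Of all 19501 genes kept in this way, 6376, 6544 and 5616 passed in the same comparisons.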
